A study of Mus musculus with 31 samples.

Results

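Mast cells are tissue-resident immune cells that store preformed mediators in cytoplasmic granules and release them when antigen crosslinks IgE on their surface. The mast cell genes described here are 8 of the 22609 genes in each table, and were taken by symbol: Cpa3, Mcpt4, Cma1 and Tpsb2 (granule proteases), Hdc (histamine synthesis), Ms4a2 and Fcer1a (IgE receptor) and Kit (stem cell factor receptor). All 8 were found in both tables. The genes were chosen by measured values: Cpa3, Mcpt4, Cma1 and Tpsb2 stood far above wild type in most of the other genotypes on day 6 of pregnancy. Their day 6 ratios therefore describe the choice and are not a finding.

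Poly(A) RNA was sequenced from mouse mammary tissue, taken without lymph nodes, on day 6 of pregnancy (18 samples) and within 12 hours of delivery, called parturition below (13 samples). All samples carry the same mixed 129SV::FVB/N::C57BL/6 strain label, and no age is given. Stat5a and Stat5b are adjacent genes for transcription factors downstream of the prolactin receptor, and the study compared animals with 0 to 4 functional alleles of the pair. AABB animals are labelled wild type and hold 4 alleles, and the design text counts floxed animals without Cre among them. AB animals (Stat5ab+/null) hold 1 allele of each gene, and BB animals (Stat5a-/-) hold 2 Stat5b alleles. B animals (Stat5abnull/Stat5a-) hold 1 Stat5b allele, and A animals (Stat5abnull/Stat5b-) hold 1 Stat5a allele. Null animals (Stat5abfl/fl;MMTV-Cre) lost both genes through Cre under the MMTV promoter, and the design text places that loss in mammary epithelial cells. B, A, BB and AB animals carry their alleles in every cell, mast cells included, so Null differs from them in the tissue of the loss as well as in copy number, and these cannot be told apart. The labels list 3 samples per genotype on day 6, and 2 at parturition except 3 for B.

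Each table holds 1 FPKM column per genotype, the authors' mean over samples (FPKM is a fragment count divided by transcript length and by the mapped total of the library). Every level below is such a mean, scaled between the 6 columns of its stage, with no SD, no replicate check and no p-value. A gene is called higher or lower when log2(scaled FPKM + 1) differs by at least 1, a 2-fold difference on that scale, among genes of at least 1 FPKM in at least 2 columns. All 8 mast cell genes passed that filter on day 6 and 7 did at parturition, where Ms4a2 did not. On day 6 Ms4a2, Fcer1a and Hdc passed only through the columns where they were high, as did Fcer1a at parturition. The 5 comparisons with wild type share the AABB column. Stat5a, the check of the labels, was lowest in BB (3.67 on day 6, 4.30 at parturition), and in Null, labelled with no functional allele in epithelium, it was 13.6 on day 6, above B and AB. At parturition Stat5a in Null was 6.96, and Stat5b in Null was 9.04 and 7.65 at the 2 stages. The columns labelled B still held Stat5a transcript (12.5 and 8.60) and those labelled A held Stat5b transcript (10.6 and 10.3). Directions for Null, B and A therefore refer to the columns so labelled.

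The granule of a connective tissue mast cell holds serine proteases of the chymase type (Mcpt4 and Cma1) and tryptase type (Tpsb2), together with the metalloprotease carboxypeptidase A3 (Cpa3), bound to heparin and stored with histamine. The IgE receptor is built from a binding subunit (Fcer1a), an amplifying subunit (Ms4a2) and a shared signalling subunit (Fcer1g). Kit binds stem cell factor (Kitl) and is needed for mast cell survival, but it is also made by luminal progenitor cells of the mammary epithelium and by melanocytes. GATA factors and MITF are transcription factors of the mast cell lineage.

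Promoter sequences were taken from RefSeq (GRCm38.p6, a later build than the mm9 of the expression tables), from 250 bases before to 50 bases after the start site. A promoter was matched for 7 of the 8 genes, all but Tpsb2. They are shown for the protease genes with the widest range between genotypes and for the IgE receptor genes, because these genes moved together between the columns. Capitals mark AGATAA or TGATAA (the GATA motif) and CACGTG or CATGTG (the MITF motif), on either strand, so that TTATCT and CACATG are matches on the opposite strand.
Cpa3, chr3:20242132-20242431, minus strand: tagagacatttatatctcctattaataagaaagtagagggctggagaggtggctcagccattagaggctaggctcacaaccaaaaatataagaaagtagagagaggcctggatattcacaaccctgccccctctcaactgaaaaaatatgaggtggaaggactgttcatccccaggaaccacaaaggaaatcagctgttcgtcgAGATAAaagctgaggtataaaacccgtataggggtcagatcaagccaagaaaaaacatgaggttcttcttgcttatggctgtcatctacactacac
Mcpt4, chr14:56062261-56062560, minus strand: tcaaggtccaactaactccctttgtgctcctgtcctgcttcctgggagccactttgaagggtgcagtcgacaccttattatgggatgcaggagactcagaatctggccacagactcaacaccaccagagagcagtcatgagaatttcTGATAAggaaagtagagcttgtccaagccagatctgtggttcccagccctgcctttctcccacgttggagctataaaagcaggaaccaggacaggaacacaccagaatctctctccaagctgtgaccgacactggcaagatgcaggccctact
Cma1, chr14:55944626-55944925, minus strand: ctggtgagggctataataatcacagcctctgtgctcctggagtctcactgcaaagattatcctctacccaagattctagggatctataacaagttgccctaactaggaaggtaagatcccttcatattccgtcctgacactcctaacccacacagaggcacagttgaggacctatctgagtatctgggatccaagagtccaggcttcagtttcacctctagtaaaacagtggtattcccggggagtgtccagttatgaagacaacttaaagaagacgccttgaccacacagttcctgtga
Ms4a2, chr19:11623670-11623969, minus strand: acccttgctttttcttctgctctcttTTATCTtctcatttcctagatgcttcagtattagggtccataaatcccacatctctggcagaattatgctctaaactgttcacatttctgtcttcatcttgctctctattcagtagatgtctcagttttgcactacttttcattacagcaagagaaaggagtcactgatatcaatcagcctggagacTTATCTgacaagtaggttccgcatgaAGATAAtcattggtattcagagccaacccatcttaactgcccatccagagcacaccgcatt
Fcer1a, chr1:173227180-173227479, minus strand: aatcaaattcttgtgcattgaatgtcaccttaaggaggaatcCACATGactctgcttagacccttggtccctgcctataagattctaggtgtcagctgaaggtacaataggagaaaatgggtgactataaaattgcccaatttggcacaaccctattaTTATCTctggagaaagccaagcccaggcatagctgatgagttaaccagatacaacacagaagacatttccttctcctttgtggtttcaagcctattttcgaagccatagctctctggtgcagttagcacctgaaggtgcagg
The GATA motif was found in 4 of the 7 promoters (Cpa3, Mcpt4, Ms4a2 and Fcer1a) and in 18.6% of all 32851 promoters of that length. Ms4a2 held 3 matches, and Cma1, Hdc and Kit held none. The MITF motif was in the promoter of Fcer1a alone among the 7, and in 20.4% of all promoters. The STAT motif TTCNNNGAA was in none of the 7 and in 8.3% of all. These are matches of letters in a short window, and nothing follows from them about binding.

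On day 6 of pregnancy the granule protease genes were far above wild type in the 4 genotypes with reduced Stat5 alleles in every cell, and modestly above it in Null. The sum of Cpa3, Mcpt4, Cma1 and Tpsb2 was 429 in B, 410 in A, 331 in BB and 250.2 in AB, against 40.9 in Null and 12.0 in AABB. In bulk tissue, more mast cells and more of these transcripts per mast cell cannot be told apart. As ratios of the sums to AABB these were 35.8, 34.2, 27.6, 20.9 and 3.41, in that order of genotypes with Null last.

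Cpa3, the carboxypeptidase of the mast cell granule, was 89.1 in B, 85.0 in A, 61.5 in BB, 44.5 in AB, 3.98 in Null and 0.974 in AABB. It had the widest range of the 4 proteases, with a log2 ratio to AABB of 5.51 in B and 1.34 in Null. Mcpt4, a chymase, was 132 in B, 128 in A, 98.7 in BB, 79.0 in AB, 11.4 in Null and 3.45 in AABB. Cma1, the other chymase, was 124 in B, 118 in A, 89.0 in BB, 63.4 in AB, 12.0 in Null and 3.78 in AABB. Both chymase genes therefore stood in the same order of genotypes as Cpa3, with B and A close together. Tpsb2, a tryptase, was 84.0 in B, 82.2 in BB, 79.4 in A, 63.3 in AB, 13.5 in Null and 3.79 in AABB. Tpsb2 differed from the rest in that BB lay between B and A, a difference too small to order without replicates.

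Mcpt4 and Cma1 belong to a protease cluster on chromosome 14, where RefSeq lists Mcpt9 and Mcpt8 beside Mcpt4, and Cma2 beside Cma1. Near-identical neighbours could share reads. Of all 50-base windows of the longest coding transcript of each gene, 5.48% of Mcpt4 windows also occurred in Cma2 or Mcpt9 and 5.38% of Cma1 windows in the gene model Gm48934. Cma2 stayed at or below 0.148 and Mcpt9 at or below 0.0147 in every column of both stages. For Ms4a2, 2.69% of windows also occurred in Ms4a4b. No window of Cpa3, Tpsb2, Hdc, Fcer1a or Kit occurred in another gene.

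**Figure D1:**
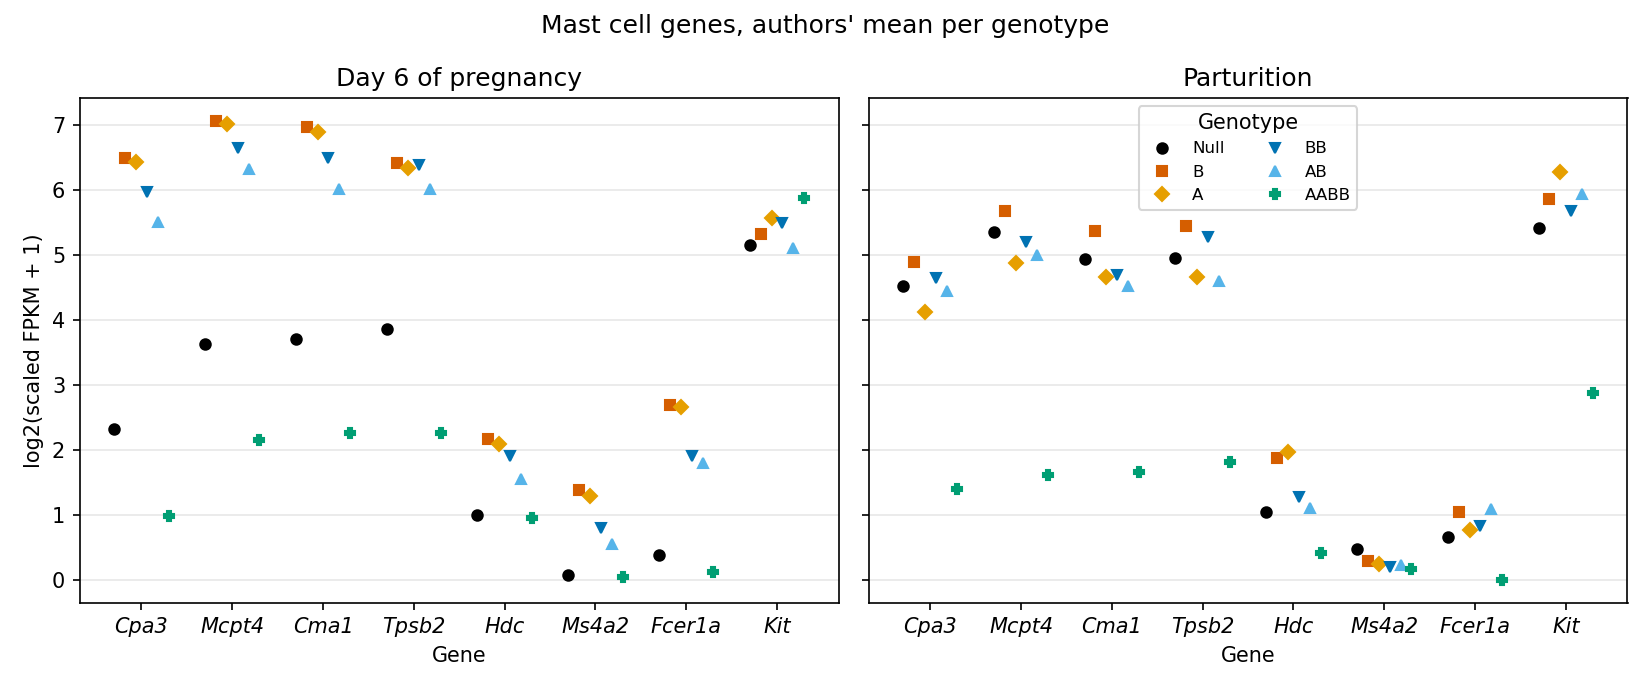
Level of each mast cell gene as log2(scaled FPKM + 1) on day 6 of pregnancy (left) and at parturition (right). Each point is the authors' mean for 1 genotype, so there are no error bars. On day 6 B, A, BB and AB lie above Null and AABB for the first 7 genes, while at parturition Null lies among them for the 4 proteases and AABB is lowest for all 8 genes.

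The proportions of the 4 proteases also differed between columns on day 6. Cpa3 made up 20.8% of their sum in B and 20.7% in A, 18.5% in BB and 17.8% in AB, but 9.74% in Null and 8.12% in AABB. The Cpa3 level behind the AABB share was 0.974, so that share carries an unknown counting error. Tpsb2 was the converse, at 32.99% of the sum in Null and 31.6% in AABB against 19.6% in B and 19.3% in A. The Mcpt4 share stayed between 27.9% (Null) and 31.6% (AB). FPKM is scaled to transcript length, which allows these shares to be compared between genes.

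At parturition Null joined the other genotypes, and wild type alone stayed low. The protease sum was 161 in B, 122 in BB, 121 in Null, 96.8 in AB and 92.9 in A, against 8.35 in AABB. As ratios to AABB these were 19.3, 14.6, 14.5, 11.6 and 11.1. The tables were normalized separately, so levels are not compared between stages. The Null to AABB ratio, formed within each table, was 3.41 on day 6 and 14.5 at parturition. Per mean level of the fibroblast genes described below it was 2.96 and 2.71, so the larger ratio at parturition was not present on that scale.

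Cpa3 at parturition was 28.7 in B, 23.9 in BB, 22.0 in Null, 20.8 in AB, 16.3 in A and 1.63 in AABB. Mcpt4 was 49.7 in B, 39.6 in Null, 35.5 in BB, 31.0 in AB, 28.2 in A and 2.05 in AABB. Cma1 was 40.3 in B, 29.6 in Null, 24.6 in BB, 24.2 in A, 21.9 in AB and 2.15 in AABB. For these 3 genes B was highest, AABB lowest by a wide margin, and the order of the other 4 changed from gene to gene. Tpsb2 was 42.2 in B, 37.7 in BB, 29.9 in Null, 24.2 in A, 23.1 in AB and 2.52 in AABB. The share of Cpa3 in the sum lay between 17.6% (A) and 21.5% (AB) in all 6 columns, so the low Cpa3 share of Null and AABB on day 6 was not present at this stage.

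The receptor genes were much weaker than the proteases. Fcer1a, the IgE-binding subunit, was 5.43 in B, 5.31 in A, 2.74 in BB, 2.48 in AB, 0.296 in Null and 0.0804 in AABB on day 6. At parturition it was 1.13 in AB, 1.06 in B, 0.767 in BB, 0.698 in A and 0.568 in Null, and it was listed at 0 in AABB. Ms4a2, the amplifying subunit, was 1.59 in B, 1.44 in A, 0.736 in BB, 0.457 in AB, 0.0478 in Null and 0.0298 in AABB on day 6. Both subunits thus kept the day 6 order of the chymases, at levels near 1 FPKM or below in several columns. As log2 ratios to wild type on day 6, Fcer1a was 2.57 and Ms4a2 1.33 in B with the pseudocount of 1, and 4.94 and 3.70 with 0.1, so the size of these ratios rests on the pseudocount. With columns scaled on fibroblast genes, introduced below, the Fcer1a ratio was 0.95 in BB and 0.92 in AB in place of 1.79 and 1.69, short of 2-fold. At parturition Ms4a2 was at most 0.394 (in Null) and 0.117 in AABB, under the filter in every column. Fcer1g, the signalling subunit shared with other Fc receptors, did not follow them: it was between 42.8 (BB) and 65.3 (AB) on day 6, with AABB inside that range. At parturition it was 17.7 in AABB and 24.4 (BB) to 50.5 (A) elsewhere.

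Hdc, which makes histamine from histidine, was 3.49 in B, 3.25 in A, 2.73 in BB, 1.91 in AB, 0.996 in Null and 0.927 in AABB on day 6. At parturition it was 2.90 in A, 2.66 in B, 1.41 in BB, 1.14 in AB, 1.05 in Null and 0.335 in AABB. Null and AABB were alike on day 6, whereas at parturition Null stood above AABB by a log2 ratio of 0.62, short of 2-fold. That Null ratio was −0.38 with columns scaled on fibroblast genes and 1.41 with a pseudocount of 0.1, so neither its direction nor its call held. The Hdc ratios to wild type of B and A were 1.22 and 1.14 on day 6 and 1.46 and 1.55 at parturition. Under fibroblast scaling they were 0.28 and 0.27 on day 6 and 0.40 and 0.66 at parturition, all short of 2-fold.

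Kit went its own way. On day 6 it was highest in wild type, at 57.3, and 46.4 in A, 44.0 in BB, 38.7 in B, 34.4 in Null and 33.4 in AB. All 5 genotypes were below AABB, with log2 ratios from −0.30 (A) to −0.76 (AB), none of them 2-fold. At parturition AABB was lowest instead of highest: Kit was 76.5 in A, 60.1 in AB, 57.1 in B, 50.2 in BB and 41.6 in Null, and only 6.30 in AABB. Those log2 ratios ran from 2.55 (Null) to 3.41 (A). With columns scaled on fibroblast genes they were 1.47 in A and between 0.29 (Null) and 0.85 (AB) in the others, so the 2-fold call ended in all but A. On that scale the day 6 ratios were −1.72 in A, −2.05 in B, −2.69 in BB and −2.98 in AB. The Kit level on day 6 in wild type was 4.78 times the summed proteases of the same column, and in B it was 0.0902 times that sum.

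Markers of the other cell types that make Kit are given beside it. Elf5, a transcription factor of luminal progenitors and alveolar cells, was 113 in AABB on day 6 and between 20.1 (AB) and 40.8 (A) elsewhere. At parturition Elf5 was 1085 in AABB and between 66.9 (Null) and 725 (BB) elsewhere, so Kit and Elf5 were both highest in AABB on day 6 and stood at opposite ends at parturition. Aldh1a3, a luminal progenitor marker, was 18.9 in AABB on day 6, within the range of 9.34 to 20.3 of the other columns. At parturition Aldh1a3 was 1.55 in AABB and from 7.79 to 20.2 elsewhere, so like Kit it was lowest in AABB. The other luminal markers were not alike at parturition. Krt8, Krt18 and Cldn3 were lowest in AABB, Cldn7 was highest there, and Krt19 and Epcam lay in between. Of the 8 luminal epithelium markers, summed levels ran from 789 (AB) to 1740 (AABB) on day 6. At parturition they ran from 1195 (Null) to 2937 (BB), with 2338 in AABB. Of 5 melanocyte genes Dct, Tyr, Tyrp1 and Pmel were below the filter at both stages, and Mlana was 8.49 in A and 7.01 in B on day 6 and at most 3.38 in any other column. The part of these cells in the Kit level was not tested. Kitl, the Kit ligand gene, was 14.9 in AABB on day 6 and between 28.6 (AB) and 40.1 (A) elsewhere, and 21.9 in AABB at parturition against 34.0 (AB) to 45.2 (B).

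**Figure D2:**
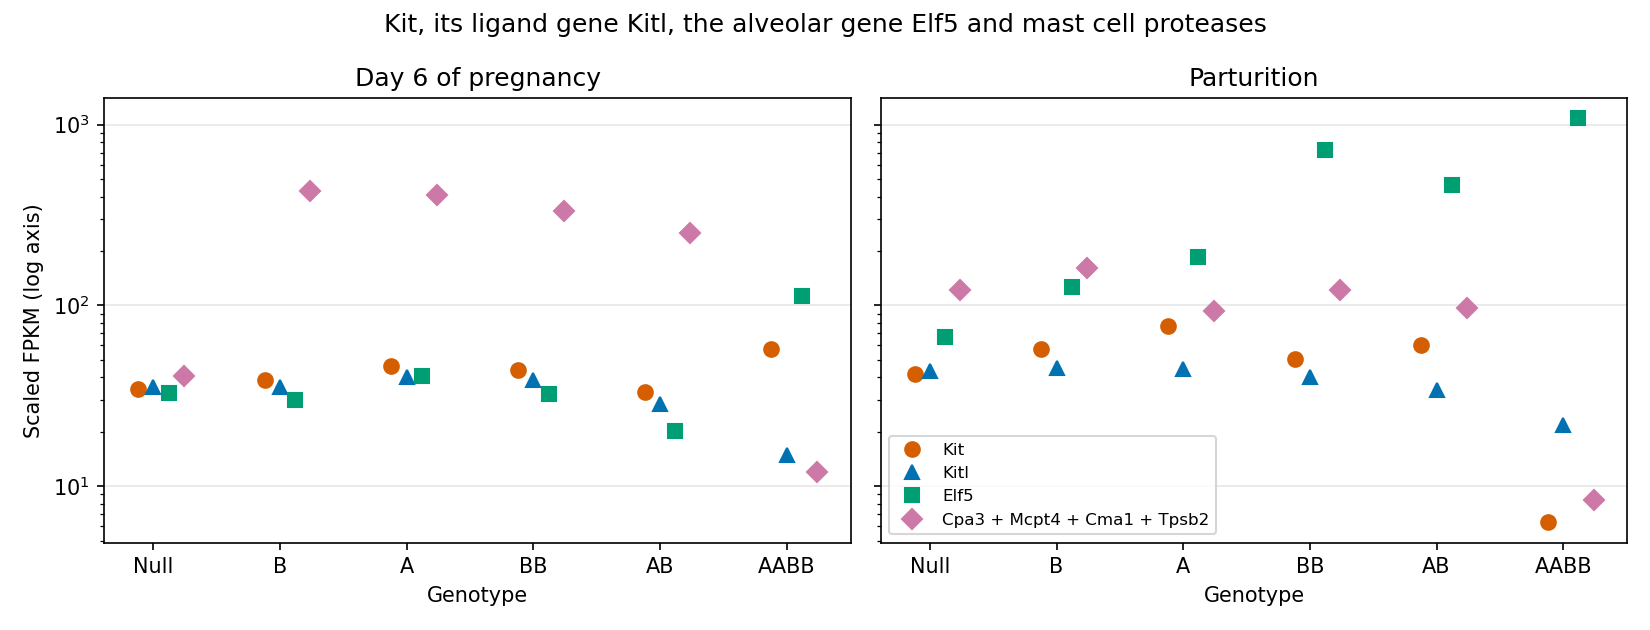
Scaled FPKM on a log axis of Kit, its ligand gene Kitl, Elf5 and the summed proteases Cpa3, Mcpt4, Cma1 and Tpsb2, for each genotype on day 6 of pregnancy (left) and at parturition (right). Each point is an authors' mean. Kit is highest in AABB on day 6 (57.3) and lowest there at parturition (6.30), while the proteases are lowest in AABB at both stages.

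Counted over the list, 7 of the 8 mast cell genes were at least 2-fold higher than wild type in B on day 6, where 7.56% of 13367 tested genes were. In A it was 7 of 8 (7.01% of all genes), in BB 5 of 8 (5.12%), in AB 5 of 8 (6.78%) and in Null 4 of 8 (2.21%). Nothing is read from these counts, since day 6 ratios chose the genes. The genes counted in B and A were all but Kit. Those in BB and AB were the 4 proteases and Fcer1a, and those in Null the 4 proteases. A gene below 1 in both columns cannot be called once 1 is added. That held for Hdc, Ms4a2 and Fcer1a in Null and for Ms4a2 in BB and AB. With 0.1 added instead, Ms4a2 passed 2-fold in BB (log2 ratio 2.69) and AB (2.10), Hdc in BB (1.46) and Fcer1a in Null (1.14). Hdc in AB (0.97) and both Hdc (0.09) and Ms4a2 (0.19) in Null stayed short of it. The median log2 ratio over the 8 was 3.36 in B, 3.31 in A, 2.96 in BB, 2.72 in AB and 0.80 in Null, against all-gene medians between −0.02 and 0.04.

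At parturition the counts of 8, with Ms4a2 below the filter and so not counted, were 7 in B (18.2% of 13061 tested genes were higher), 6 in A (17.3%), 5 in BB (8.07%), 6 in AB (10.2%) and 5 in Null (19.1%). The 4 proteases and Kit were higher in each of the 5 genotypes. Hdc was added in B and A, and Fcer1a in B and AB. Fcer1a was listed at 0 in the wild-type column of every comparison, so its calls rest on the pseudocount. With 0.1 its log2 ratio to wild type ran from 2.74 (Null) to 3.63 (AB), past 2-fold in all 5 genotypes. Hdc also passed 2-fold in all 5 with 0.1, from 1.41 (Null) to 2.79 (A). No mast cell gene was 2-fold lower than wild type in any genotype at either stage, with 5.18% (B), 5.54% (A), 3.6% (BB), 5.01% (AB) and 2.09% (Null) of all genes lower on day 6. The lower shares at parturition were 10.1% (B), 10% (A), 5.37% (BB), 5.45% (AB) and 10.7% (Null).

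**Figure D3:**
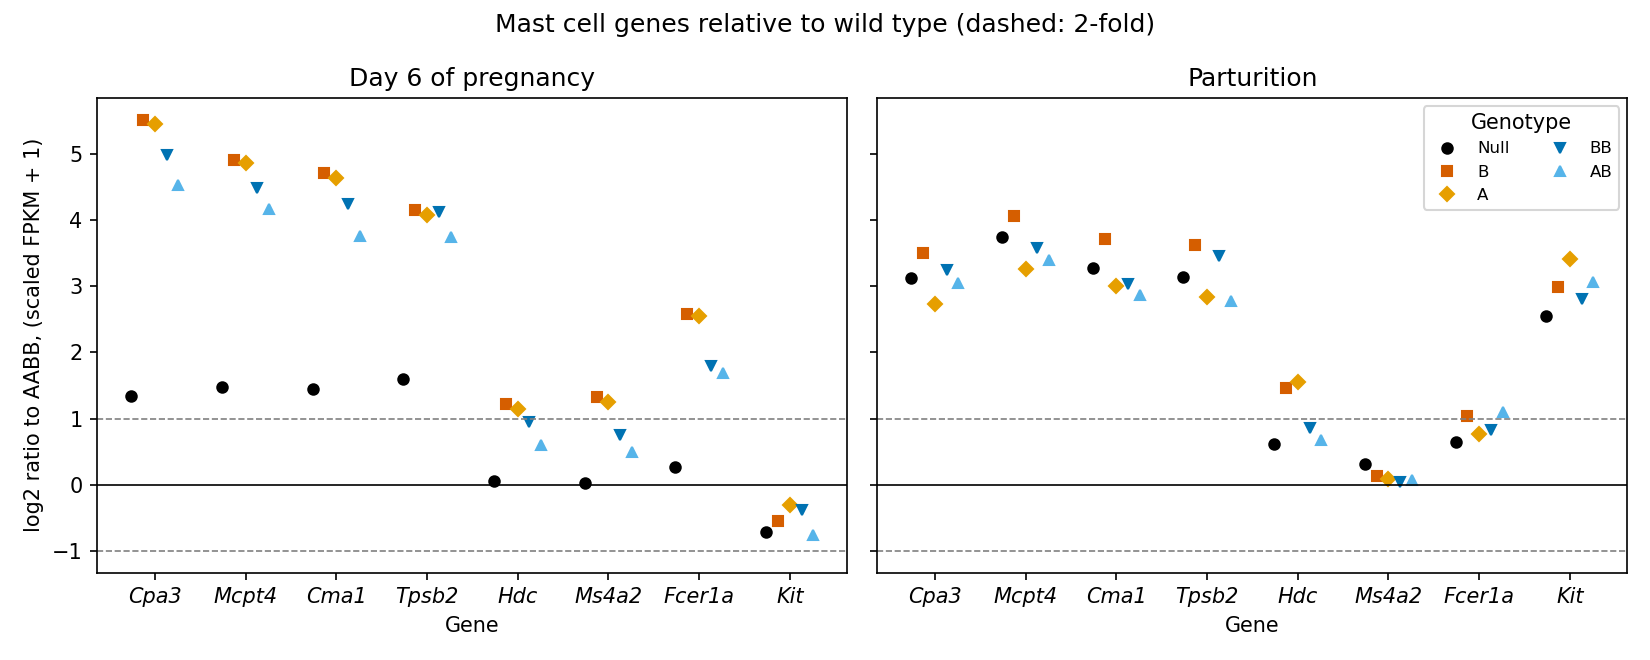
Log2 ratio of scaled FPKM + 1 to wild type (AABB) for each mast cell gene, on day 6 of pregnancy (left) and at parturition (right). Dashed lines mark 2-fold. The protease ratios of Null lie between 1.34 and 1.60 on day 6 and between 3.13 and 3.73 at parturition (1.37 to 1.53 and 1.07 to 1.73 with columns scaled on fibroblast genes), and those of Kit change sign between the stages.

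Set directly against Null, 7 of the 8 genes were at least 2-fold higher in B on day 6 (6.42% of all genes) and 7 in A (6.08%), Kit being the exception in both. None was 2-fold lower (3.95% of all genes in B, 4.67% in A). Nothing is read from these day 6 counts either, since the high B and A levels entered the choice of genes. Hdc, Ms4a2 and Fcer1a were also below 1 in Null and passed the filter only through columns where they were high. Cpa3 had log2 ratios to Null of 4.18 in B and 4.11 in A, and Kit 0.17 and 0.42. Kit was 2-fold lower in B than in Null under fibroblast scaling, at −1.12, and Hdc was 0.35 in B and 0.34 in A in place of 1.17 and 1.09. At parturition none of the 7 that passed the filter was 2-fold higher in B (2.72% of all genes) or A (3.51%) than in Null, and none was 2-fold lower (2.86% and 3.19%). Under fibroblast scaling Hdc (1.03) and Kit (1.18) passed 2-fold in A, and with a pseudocount of 0.1 Hdc passed in B (1.26) and A (1.38). With the main scaling and a pseudocount of 1, Mcpt4 at parturition had a log2 ratio to Null of 0.32 in B and −0.48 in A. Without replicates such differences cannot be set against the spread between animals.

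The isoform comparison at 1 allele showed no 2-fold difference in any mast cell gene between A and B, at either stage, where 0.135% and 0.36% of all genes were higher in A and 0.247% and 0.345% lower. On day 6 the 4 proteases in A were 0.945 to 0.971 times their level in B. At parturition A was below B for each protease, with ratios of levels from 0.568 (Mcpt4) to 0.599 (Cma1), while Kit was 1.34 times and Hdc 1.09 times its level in B. Some A and B libraries have the same number in their tags, and whether a common number means a common mouse is not stated. At 2 alleles, AB against BB, no mast cell gene was 2-fold different either (1.73% of all genes higher and 0.988% lower on day 6, 1.06% and 0.72% at parturition). On day 6 all 8 genes were lower in AB than in BB, with ratios of levels from 0.622 (Ms4a2) to 0.904 (Fcer1a). The 2 columns also differed in tissue: skeletal muscle genes summed to 5231 in AB and 82.6 in BB, and luminal epithelium markers to 789 and 1178. The part of this in the ratios was not tested. Between BB and B, 2 Stat5b alleles against 1, no mast cell gene was 2-fold different with 1 added to each level (1.87% higher and 4.59% lower on day 6, 3.25% and 4.62% at parturition). The ratios of levels of BB to B on day 6, with nothing added, were 0.463 for Ms4a2, 0.506 for Fcer1a, 0.690 for Cpa3 and 0.979 for Tpsb2. Ms4a2 was past 2-fold on that measure, so its call rests on the pseudocount. With columns scaled on fibroblast genes 4 mast cell genes were 2-fold lower in BB than in B on day 6.

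Fibroblast and other stromal genes moved in the same columns and are given beside the proteases. The geometric mean of 11 fibroblast and matrix genes, relative to AABB on day 6, was 5.14 times in BB, 4.83 in AB, 2.87 in B, 2.71 in A and 1.15 in Null. Of the 11 genes, 11 were 2-fold higher in BB, 11 in AB, 7 in B, 7 in A and 2 in Null. For all genes those shares were 5.12%, 6.78%, 7.56%, 7.01% and 2.21%, in the same order. Col1a1 was lower in A, where 5.54% of all genes were. Expressed per fibroblast mean, the protease sum was 12.5 times that of wild type in B, 12.6 in A, 5.38 in BB, 4.32 in AB and 2.96 in Null. The protease sum and the 11-gene mean thus did not share an order: BB and AB led for the mean, B and A for the sum. Single genes of the 11 differed. Dcn was 1157 in A, 1137 in B, 1106 in BB and 981 in AB, and Pdgfra was likewise highest in A and B. Col1a1 was 1579 in BB and 1416 in AB against 329 in B and 298 in A, and Col3a1 was likewise highest in BB and AB. At parturition the fibroblast mean was between 4.27 (A) and 5.36 (Null) times wild type, and the protease sum per fibroblast mean was 3.81 times in B, 3.04 in BB, 2.71 in Null, 2.61 in A and 2.24 in AB. With columns scaled on these fibroblast genes, the count of mast cell genes higher than wild type at parturition was 4 in place of 7 in B, and 2 in place of 6 in AB. In AB, Cma1 and Tpsb2 then had log2 ratios to wild type of 0.90 and 0.76. The part of stromal content in these values was not tested.

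**Figure D4:**
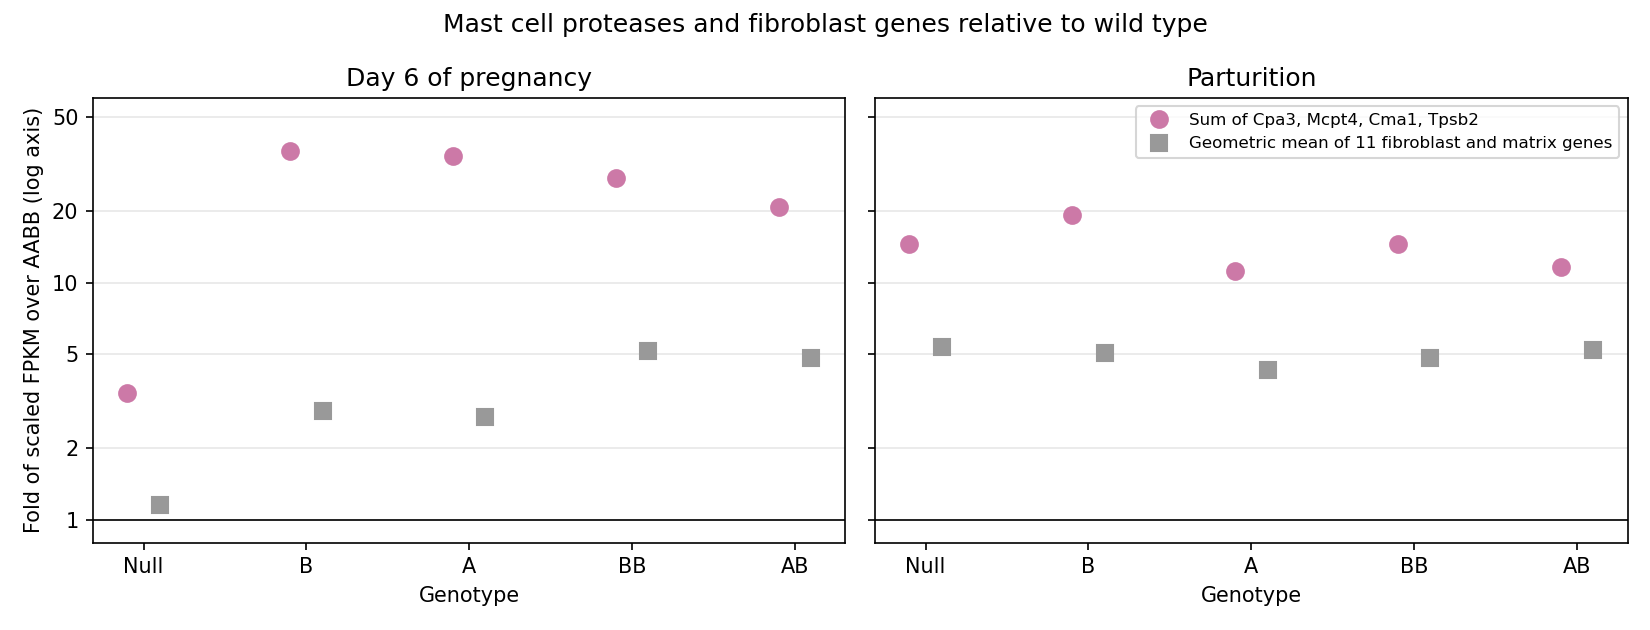
Ratio to wild type (log axis) of the summed scaled FPKM of the 4 protease genes and of the geometric mean of 11 fibroblast and matrix genes, on day 6 of pregnancy (left) and at parturition (right), from the authors' means. The proteases lie above the fibroblast genes in each genotype, with the smallest gap in AB at parturition (11.6 against 5.18) and the largest in A on day 6 (34.2 against 2.71).

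Markers of other immune cells were checked in the same columns. Basophil genes near those of mast cells were close to nil: Mcpt8 was at most 0.082 in any column and Prss34 at most 0.738 (AB, day 6). The summed level of 4 basophil genes ran from 0.105 (Null) to 5.04 (A) on day 6, of which Ccr3, also an eosinophil gene, made 4.74 in A, and from 0.0206 (AABB) to 0.516 (AB) at parturition. The 6 eosinophil genes summed to 9.43 in A and 9.42 in B on day 6 and to at most 2.95 elsewhere. B and plasma cell genes (7 listed) summed to 236 in B and 164 in A on day 6 against 11.6 to 30.3 in AB, Null and BB and 7.99 in AABB, and to at most 24.3 at parturition. All 7 were 2-fold higher than wild type in B and in A on day 6, 4 were in Null, 1 in BB and 0 in AB. Of all genes 7.56% were higher in B, 7.01% in A, 2.21% in Null, 5.12% in BB and 6.78% in AB. These shares also stand beside the macrophage counts that follow. The 10 macrophage genes summed to 1514.7 in B, 1429.9 in AB, 1421 in BB, 1313 in A, 1099.7 in AABB and 812 in Null on day 6, with 5 of 10 at least 2-fold above wild type in each of B, A, BB and AB and 0 in Null. At parturition their sums were 241 in AABB and from 539 (Null) to 1176 (B) elsewhere. The 6 skeletal muscle genes, which mark admixed muscle, summed to 5231 in AB on day 6 and to 23.1 (B) to 376 (Null) in the other columns. At parturition they summed to 2706 in Null, 1650 in B, 1643 in A, 176 in AABB, 6.93 in AB and 3.34 in BB. Neutrophil genes (7 of 8 in the table) summed to 2.47 in AABB and 26.1 in A on day 6, and to 6.57 (Null) to 27.7 (A) at parturition. T cell genes (7 of 8 in the table) summed to 5.96 (AB) to 24.1 (B) on day 6 and 2.66 (BB) to 7.83 (Null) at parturition. Of the lymph node genes Ccl21a and Ccl19 were listed at 0 in every column, and the 5 listed summed to 60.9 in B and 16.7 in A on day 6 and to at most 6.20 in the other day 6 columns. At parturition the lymph node genes summed to 15.2 in A, 10.4 in B and at most 2.21 elsewhere, with Cxcl13 2-fold higher than wild type in A, B and Null. The 6 adipocyte genes summed to 15942 (AABB) to 33790 (Null) on day 6, and to 3867 in AABB and 6831 (AB) to 25761 (Null) at parturition. The 6 endothelial genes summed to 142.5 (AABB) to 254 (AB) on day 6 and to 78.3 (AABB) to 234 (Null) at parturition. The 6 basal epithelial genes summed to 365 (AABB) to 820 (A) on day 6 and 493 (Null) to 1879 (BB) at parturition. The part of these cells in the mast cell values was not tested.

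Among other serine proteases of mast cells and basophils, 3 of 10 passed the filter on day 6. Of these, 2 were higher than wild type in B, 2 in A, 1 in BB and 0 in AB and Null. For all genes the shares were 7.56% (B), 7.01% (A), 5.12% (BB), 6.78% (AB) and 2.21% (Null). Tpsab1, the second tryptase gene, was 9.38 in BB, 9.09 in B, 8.56 in A, 1.49 in Null, 1.13 in AABB and 0.274 in AB. AB was thus lowest for Tpsab1 although it held Tpsb2 at 63.3, and the Tpsb2 to Tpsab1 ratio was 231 there against 3.35 to 9.28 in the other columns. At parturition Tpsab1 was 9.83 in Null, 7.02 in BB, 3.98 in B, 3.06 in AB, 3.02 in A and 0.089 in AABB, and its ratio to Tpsb2 in AB was no longer apart (7.57 times more Tpsb2). No 50-base window was shared between Tpsb2 or Tpsab1 and another gene. Tpsg1, a membrane-anchored tryptase gene, was 2.17 in B and 1.81 in A on day 6 and at most 0.666 elsewhere, so it passed the filter only through B and A. The proteases of mucosal mast cells, Mcpt1 and Mcpt2, were at most 0.0165 and 0.054 in any column, beside Mcpt4 at up to 132.

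With 1 added to each level, other genes of mast cell identity were called 2-fold higher than wild type in fewer genotypes than the proteases on day 6. Of 13 listed genes 10 passed the filter, and 7 were 2-fold higher than wild type in B, 7 in A, 5 in BB, 4 in AB and 0 in Null, where 7.56%, 7.01%, 5.12%, 6.78% and 2.21% of all genes were. Mrgprb1, a Mas-related receptor, was 4.54 in B, 4.31 in A, 2.48 in BB, 1.503 in AB, 0.273 in Null and 0.0547 in AABB. Slc6a4, the serotonin transporter gene, was 4.19 in B, 3.87 in A, 3.31 in BB, 2.00 in AB, 0.467 in Null and 0.166 in AABB. Cyp11a1, a steroid-synthesis enzyme also made by mast cells, was 2.71 in BB, 2.63 in B, 2.42 in A, 1.27 in AB, 0.178 in Null and 0.0746 in AABB. Il1rl1, the interleukin-33 receptor, was 3.50 in B and in A, 2.33 in BB, 2.30 in AB, 0.493 in Null and 0.376 in AABB. A gene below 1 in both columns cannot pass 2-fold once 1 is added. These 4 genes were below 1 in both Null and AABB, so the count of 0 in Null does not show that they were unchanged there. Of the lineage transcription factors Mitf was 2-fold higher in B (7.43 against 2.96) and A (7.25), while Gata2 (log2 ratio 0.06 in B) and Tal1 (0.08 in B) were within 2-fold. Rab27b, a gene of granule secretion, was highest in Null (2.65) and 2.20 in B against 0.963 in AABB. At parturition 8 of 13 passed, of which 4 were 2-fold higher than wild type in Null, 3 in B, 1 in BB and none in A or AB. The shares of all genes higher at that stage were 19.1% (Null), 18.2% (B), 8.07% (BB), 17.3% (A) and 10.2% (AB). Il1rl1 was then highest in Null, at 3.44 against 1.35 in B and 0.153 in AABB.

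The signals that recruit or sustain mast cells were measured in the same tissue. Of 11 listed genes 7 passed on day 6, of which 3 were 2-fold higher than wild type in B, 3 in A, 3 in BB, 1 in AB and 1 in Null, with Tgfb1 lower in A. The shares of all genes higher were 7.56% (B), 7.01% (A), 5.12% (BB), 6.78% (AB) and 2.21% (Null), and 5.54% were lower in A. Ccl11, an eotaxin gene, was 82.6 in B, 79.9 in A, 51.1 in AB, 45.5 in BB, 24.6 in Null and 12.4 in AABB. Il33 was 13.1 in B, 12.6 in BB, 12.1 in A, 8.49 in AB, 7.88 in Null and 4.31 in AABB. Kitl was 2-fold higher in Null, B, A and BB, at like levels in Null (35.5) and B (35.4). At parturition 6 passed, and 6 were higher in B (18.2% of all genes), 5 in A (17.3%), 5 in Null (19.1%), 3 in BB (8.07%) and 3 in AB (10.2%). Il33 was then 0.424 in AABB and 1.45 (AB) to 6.62 (B) elsewhere. Il3 and Il9, growth factor genes for mast cells, were listed at 0 in every column.

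The IgE receptor signalling list had a median log2 ratio to wild type on day 6 of 0.72 in B and 0.46 in A, against all-gene medians of 0.04 and 0.03. In it 2 of 11 genes were 2-fold higher in B (Btk and Inpp5d), 1 in A (Btk), 1 in BB (Fyn) and none in AB or Null, and Lat2 lower in BB and AB. The shares of all genes higher were 7.56% (B), 7.01% (A), 5.12% (BB), 6.78% (AB) and 2.21% (Null), and those lower 3.6% (BB) and 5.01% (AB). Btk, a kinase also made by B lymphocytes, was 8.35 in B and 7.82 in A and 1.87 to 2.86 in the other columns. At parturition 10 passed, of which 7 were higher in B, 7 in A, 2 in AB, 2 in Null and 0 in BB. Of all genes 18.2% were higher in B, 17.3% in A, 10.2% in AB, 19.1% in Null and 8.07% in BB. Of 6 granule matrix and heparin genes, Srgn was higher than wild type in B on day 6, where 7.56% of all genes were. Hs6st1 was lower in B and A on day 6, where 5.18% and 5.54% of all genes were. Srgn, the core protein of the granule proteoglycan that many blood cells make, was 64.8 in B, 53.2 in A, 40.8 in AB, 32.9 in BB, 32.8 in Null and 27.3 in AABB on day 6. Ndst2, which sulfates heparin, lay between 7.81 (AABB) and 10.7 (B).

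Likeness of profile was measured by Pearson's r over the 6 columns of a stage with the mean log2(scaled FPKM + 1) of the 4 proteases, averaged over both stages, among 12757 genes passing the filter at both. All points share their libraries with the proteases, and r over 6 columns is a description. Among the mast cell genes the proteases correlated with the mean of the other 3 at 0.993 or more on day 6 and 0.992 or more at parturition. Fcer1a reached 0.965 and 0.901, Hdc 0.943 and 0.739, Ms4a2 0.888 and 0.497, and Kit −0.37 and 0.932. The 8 other genes most alike were Hdgfrp3, Ptplad2, Pla2g2d, D15Ertd621e, Scaper, Sema5a, Nedd4 and Efemp1, with mean r from 0.982 to 0.989. Their ranges were much narrower than those of the proteases. Pla2g2d, a secreted phospholipase, was 33.4 in B, 28.0 in A, 26.5 in BB, 15.9 in AB, 5.47 in Null and 2.82 in AABB on day 6. Efemp1, which encodes the matrix protein fibulin-3, was 140 in B, 134 in AB, 131 in A, 109 in BB, 46.7 in Null and 18.7 in AABB. At parturition Efemp1 was 8.61 in AABB and between 51.5 (AB) and 61.3 (Null) elsewhere. Pdgfra, of the fibroblast and matrix list, had rank 11 in likeness, with r of 0.990 on day 6 and 0.971 at parturition.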

How the data were processed

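Mammary RNA of 31 labelled samples was sequenced by the authors. The submitters' processing notes name CASAVA, TopHat and the mm9 build, without versions. The authors deposited FPKM per gene symbol as 1 column per genotype and stage. The program behind the FPKM values and the annotation are not given in the sources used here. Of values of at least 1 FPKM, 66.6% to 67.6% end in 33 or 67 in columns with 3 listed samples and at most 1.33% in columns with 2, as means of 3 would. Read depth is unknown.

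Columns of a stage were divided by size factors, each the median of a column's ratios to the gene-wise geometric mean, from genes of at least 1 FPKM in all 6 (11733 and 10864 genes; factors 0.794 to 1.13). Log2 ratios used a pseudocount of 1. The planned limma fits need a value per sample and could not be run. Alternatives were a pseudocount of 0.1, no filter, a floor of 5 FPKM, no scaling, and scaling on fibroblast genes. The calculation was tested on simulated data. The mast cell genes and all lists were chosen with earlier results of these data known. Genes named were all 8 mast cell genes, Stat5a and Stat5b, up to 4 genes of each related list with the largest absolute B to wild-type log2 ratio (lists of up to 6 in full), and the 8 most alike. Not all of these are printed, and others, such as Ltc4s, Ndst2, Tal1 and the other-cell markers, were chosen after their values were seen. Python 3.11.15, numpy 2.4.6, pandas 2.3.3 and matplotlib 3.10.9 were used.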

Additional observations from a re-analysis of the deposited data

Results flagged for a closer look

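In 2 patterns a ratio had opposite signs at the 2 stages and passed 2-fold at one of them, and neither difference between stages was tested, since each column is a single mean. Kit was below wild type on day 6 in all 5 genotypes and above it at parturition. Its log2 ratios to AABB were −0.552 on day 6 and 2.99 at parturition in B, −0.299 and 3.41 in A, −0.374 and 2.81 in BB, −0.761 and 3.06 in AB, and −0.719 and 2.55 in Null.

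The proteases in A stood above Null on day 6 and slightly below it at parturition. The log2 ratios of A to Null were 4.11 and −0.406 for Cpa3, 3.38 and −0.476 for Mcpt4, 3.19 and −0.28 for Cma1, and 2.47 and −0.296 for Tpsb2. With columns scaled on fibroblast genes the parturition values were −0.093 for Cpa3, −0.156 for Mcpt4, 0.036 for Cma1 and 0.02 for Tpsb2, so the change of sign ended for Cma1 and Tpsb2.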

How the results depend on the processing

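No paired analysis was possible because the tables hold 1 mean column per genotype, and for the same reason no replicate could be left out. No log2 ratio past 2-fold changed sign under the 5 alternatives, and without scaling, without the filter or with the floor of 5 FPKM each count of mast cell genes stayed within 1.5 times its value. Counts that changed by no more than 1.5 times are not listed here. With a pseudocount of 0.1 the count lower in BB than in B on day 6 was 1 in place of 0, and at parturition the count higher than Null was 1 in place of 0 in both B and A. Scaling on fibroblast genes moved the most counts, and it put the median log2 ratio of all genes to wild type between −0.19 (Null, day 6) and −2.09 (AB, parturition). Under it, the count lower than wild type on day 6 was 1 in place of 0 in each of B, A, BB and AB, the count lower than Null was 1 in B, and 4 were lower in BB than in B. At parturition under that scaling 4 were higher than wild type in B, 2 in AB, and 2 were higher in A than in Null. The cause was not tested. Unscaled FPKM put that median at up to 0.53 (B, parturition). Hdc ratios to wild type that were short of 2-fold turned negative under fibroblast scaling in BB, AB and Null at both stages, and with a pseudocount of 0.1 they passed 2-fold at parturition in BB (1.80), AB (1.51) and Null (1.41). Read depth is unknown, so values below about 1 FPKM, those of Ms4a2 above all, carry an unknown counting error.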

Other observations

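Genes that make or clear mast cell mediators did not move as one group. Slc18a2, which loads histamine and other amines into vesicles, was 2.29 in B, 2.12 in A, 1.296 in BB, 1.11 in AB, 0.576 in Null and 0.401 in AABB on day 6, but at parturition it lay between 0.846 (A) and 1.34 (Null) with 1.32 in AABB. Hnmt, which inactivates histamine, was highest in wild type at parturition, at 28.4 against 6.94 (AB) to 16.1 (Null), and was 10.2 in AABB and up to 17.1 (Null) on day 6. Alox5, the first enzyme of leukotriene synthesis, was 6.74 in B, 6.43 in A, 5.48 in AB, 5.39 in BB, 1.26 in Null and 0.612 in AABB on day 6. Ltc4s, a later enzyme of that pathway, was 63.5 in Null on day 6 and 23.3 (BB) to 47.1 (AABB) elsewhere, an order unlike that of the proteases. Hpgds, the hematopoietic prostaglandin D synthase gene, was 4.84 in B, 4.61 in A, 3.06 in BB, 2.27 in AABB, 1.97 in AB and 1.79 in Null on day 6. Ptgs1, a cyclooxygenase gene, was 22.4 in AABB at parturition against 5.05 (Null) to 14.7 (AB). Hs6st1 and Ext1, of heparan sulfate synthesis, were also highest in wild type at parturition, at 46.6 and 47.0, with 36.5 and 29.7 in AB and at most 22.0 and 21.8 in the other columns.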
